A study of Mus musculus with 5 samples.

Results

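The 10 genes described here belong to the antioxidant and glutathione response and were followed in single cells from mammary glands of mice and from 1 mammary tumor: Nqo1, Hmox1, Slc7a11, Gclc, Gclm, Gsta4, Gstm1, Gstp1, Txnrd1 and Srxn1. They were chosen by name, as targets of the transcription factor NRF2 or as enzymes that act on 4-nitroquinoline 1-oxide (4NQO) and on its products, and matched by symbol. All 10 were found among the 27998 genes counted in each library. There were 5 libraries in 4 groups. BPK mice carried Brca1 wt/flox, Trp53 flox/flox and Krt14cre, and PK mice carried Brca1 wt/wt with the same Trp53 and Cre alleles. The groups were BPK glands after 12 intraductal injections of the vehicle PBS/PEG (1 library), PK glands after 12 injections of 4NQO (1 library), BPK glands after 12 injections of 4NQO (2 libraries, replicates 1 and 2), and a BPK tumor that formed after 24 injections of 4NQO (1 library). Every group thus shared Trp53 flox/flox and Krt14cre, and no library without Cre was analysed here. Cre driven by the Krt14 promoter acts in basal cells, in keratinocytes and in the cells that descend from them. The labels give neither the ages nor the number of animals behind a library, so p-values measure the spread between these samples only, which may be technical. They also do not say which exons are floxed, and the 3′ counts of Brca1 and Trp53 were therefore not used as a check of the genotypes.

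NRF2, encoded by Nfe2l2, is held low by KEAP1, which targets it for degradation. Electrophiles and oxidants modify KEAP1, NRF2 builds up and pairs with small MAF proteins, and the pair binds antioxidant response elements near its target genes. BACH1 competes for these elements, above all at Hmox1. 4NQO is reduced in cells to 4-hydroxyaminoquinoline 1-oxide, a step that NQO1 can catalyse, and seryl-tRNA synthetase can then activate that product to the form that binds DNA. Glutathione S-transferases can instead join 4NQO to glutathione.

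Libraries held 27383717 to 64169843 unique molecular identifiers (UMIs, counted molecules). Without broken cells and likely doublets 31526 cells remained of 34526 barcodes, 2248 of them from the tumor. The median cell held 2544 to 4522 UMIs in the glands and 19497.5 in the tumor. BPK 4NQO replicate 2 stood apart. It shared 1 or 2 cell barcodes with each other library, against 26 to 107 for every other pair, and most of its cells formed clusters of their own. Cells were clustered without the 10 genes and without the pathway genes listed below, and clusters were named from marker genes. The classes are called luminal alveolar-like, luminal hormone-sensing-like, basal-like, keratinocyte-like and so on, and below by the first words alone. The largest tumor cluster, led by Hmga2 and Pthlh, scored highest for keratinocyte markers, but its top genes held more markers of another class. It therefore stayed unnamed, entered no test and is called cluster 11. Gated one by one, 716 of its cells were keratinocyte-like. The tumor gave 876 of its 885 cells, and 99.9% of them held Krt6a, a stress keratin. Levels are UMI counts per 1000000 UMIs of a class in a library (CPM), and 60 pairs of class and library held at least 30 cells.

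Promoters were searched for antioxidant response elements, because these are the sequences through which NRF2 acts. RefSeq (GRCm38.p6) gave promoters for 7 of the 10 genes. In the 250 bases before the start site, 4 genes held TGACNNNGC, the core of the element, or TGAGTCAGC, a motif of the same length that differs from that core, holds an AP-1 site and was added after the sequences were seen. The 7 genes had 10 windows, of which 4 held a match and 6 did not, and the first motif was matched in Gclm and Txnrd1 alone. Of all 32851 windows of that length 10.5% held either motif on either strand, 10.2% the first, 0.347% the second and 0.0578% both. The 100 bases that end with the match are shown in GRCm38.p6 coordinates, 5′ to 3′ on the strand of the gene, with the match in capitals. In Gclm and in the second Txnrd1 promoter the match reads TGACNNNGC on the opposite strand.
Gstp1 (chr19:4037978-4038077, minus strand): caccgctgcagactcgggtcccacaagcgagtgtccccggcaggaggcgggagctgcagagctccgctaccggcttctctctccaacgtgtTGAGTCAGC
Srxn1 (chr2:152105388-152105487, plus strand): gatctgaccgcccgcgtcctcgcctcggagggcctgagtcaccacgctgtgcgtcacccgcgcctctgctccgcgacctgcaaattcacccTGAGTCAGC
Gclm (chr3:122245332-122245431, plus strand): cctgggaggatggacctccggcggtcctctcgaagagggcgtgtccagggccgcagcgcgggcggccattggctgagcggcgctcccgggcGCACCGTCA
Txnrd1 (chr10:82859023-82859122, plus strand): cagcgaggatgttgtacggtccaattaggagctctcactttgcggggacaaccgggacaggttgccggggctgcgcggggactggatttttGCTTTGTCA
The first base of the match lay 74 bases before the start in Gstp1, 45 in Srxn1, 134 in Gclm and 92 in Txnrd1. A match is a run of letters and not a measured binding site, and elements further from the start were not searched.

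Nqo1 (chr8:107388225-107403206, minus strand; gene positions are GRCm38, GENCODE M21) encodes the quinone reductase that also reduces 4NQO. It was an epithelial and endothelial transcript. Among named classes the highest median over libraries was that of keratinocyte-like cells, at 28.0 and 22.4 CPM in BPK 4NQO replicates 1 and 2 and 26.3 CPM in the tumor. Alveolar cells held 14.2 CPM with vehicle, 14.5 in PK glands, and 17.7 and 13.5 in the BPK 4NQO replicates. Their range overlapped that of endothelial cells, with 12.4, 26.3, 17.1, 9.20 and 7.57 CPM in BPK vehicle, PK 4NQO, the 2 replicates and the tumor, and that of basal cells, with 10.8, 9.10, 10.2, 8.84 and 17.9 CPM in the same order. Hormone-sensing cells, the other luminal class, were lower in each library, at 0.398 to 5.34 CPM. Among endothelial clusters the level followed vessel type: cluster 15, which carries the venous genes Ackr1 and Selp, held 26.9, 50.7, 41.3 and 11.3 CPM in the 4 gland libraries in the order above. Cluster 5, with the capillary genes Gpihbp1 and Car4, held 9.04, 8.42 and 10.45 CPM in BPK vehicle, PK 4NQO and replicate 1, where the venous cluster was the higher of the pair. In replicate 2 it had 35 cells and 0 counts, with an upper limit of 29.8 CPM, so no order can be read there.

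Hmox1 (chr8:75093621-75100589, plus strand) encodes heme oxygenase 1, which breaks down heme and which macrophages use when they clear red cells. Macrophages led, at 1007 CPM with vehicle, 859.5 in PK glands, 735 and 1113 in the BPK 4NQO replicates and 401 in the tumor. They stood above every other class in each library. Fibroblasts (365, 256, 203, 267 and 109.6 CPM in the same order), basal cells (248, 299, 157, 213 and 86.0 CPM) and endothelial cells (206, 239.9, 141, 232 and 175 CPM) overlapped one another. Luminal cells were low, with 16.4 to 89.1 CPM in alveolar and 16.1 to 36.1 CPM in hormone-sensing cells. Over all kept cells replicate 2 held 274 CPM of Hmox1 against 53.0 to 82.5 CPM in the other libraries. The 7 macrophage markers, C1qa among them, also summed to 45.65 to 312 CPM in its 15 other classes, with 3 to 7 of them above 0. In the other glands they summed to at most 19.87 CPM outside macrophages. The part of this in the Hmox1 levels was not tested.

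**Figure D1:**
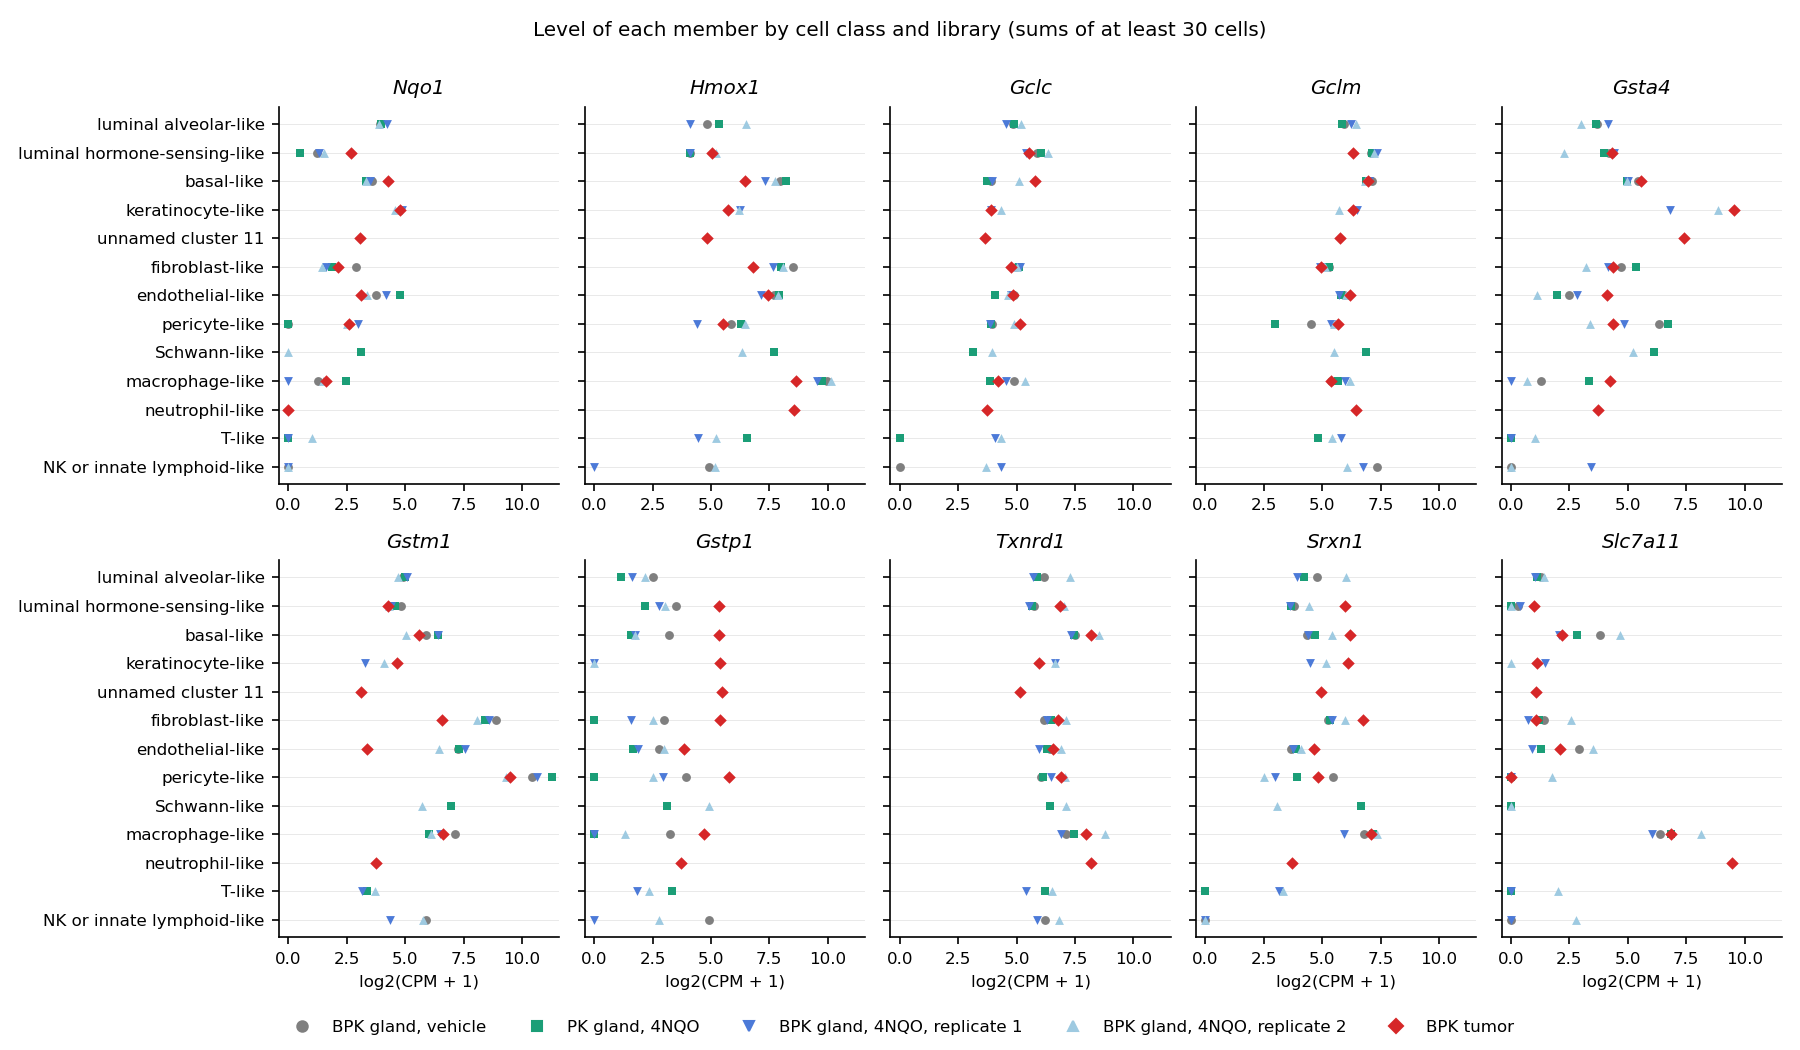
Levels of the 10 genes in 13 cell classes, in CPM on a log2(CPM + 1) scale, with 1 point per library that held at least 30 cells of the class. Hmox1 is highest in macrophages, Slc7a11 in tumor neutrophils and macrophages, Gstm1 in pericytes, Gsta4 in keratinocyte-like cells and, in the glands, Gclc in hormone-sensing cells.

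Slc7a11 (chr3:49892526-50443614, minus strand) encodes the subunit of system xc- that brings cystine into the cell for glutathione synthesis. It was a myeloid transcript here. Macrophages held 83.0 CPM with vehicle, 114 in PK glands, 63.9 and 277 in the BPK 4NQO replicates and 115 in the tumor. The 55 tumor neutrophils held 697 CPM, and no gland library held enough neutrophils to compare. Basal cells came next among the classes seen in every library, at 13.2, 6.06, 3.20, 24.5 and 3.58 CPM, below the macrophages of each library.

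Gclc (chr9:77754535-77794485, plus strand) and Gclm (chr3:122245557-122270732, plus strand) encode the catalytic and the modifier subunit of glutamate-cysteine ligase, which makes the first and rate-limiting step of glutathione synthesis. Among named gland classes Gclc was highest in hormone-sensing cells, with 57.6, 65.9, 41.1 and 79.5 CPM in the 4 gland libraries, and these cells held 44.7 CPM in the tumor. Fibroblasts, next among the classes held by all libraries, held 25.8 to 34.2 CPM, a range that did not overlap it. Basal cells held 14.0, 12.5 and 14.6 CPM with vehicle, in PK glands and in replicate 1, 32.9 in replicate 2 and 53.8 in the tumor, above the hormone-sensing cells of that library. Gclm was highest in hormone-sensing cells (135, 138, 161, 149.5 and 79.1 CPM) and in basal cells (139, 116, 129, 113 and 125 CPM), and these ranges overlapped. Alveolar cells held 55.8 to 86.6 CPM and fibroblasts 28.8 to 38.5 CPM. Both subunits thus had their highest median in hormone-sensing cells, while basal cells ranked next for the modifier and below fibroblasts for the catalytic subunit in BPK vehicle, PK 4NQO and replicate 1.

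Gsta4 (chr9:78182774-78209349, plus strand) encodes a transferase that conjugates 4-hydroxynonenal, a product of lipid peroxidation. Its highest median was that of keratinocyte-like cells. Such cells held 112 CPM in replicate 1, 464 in replicate 2 and 745 in the tumor. Within the tumor the level was 1221 CPM in cluster 33, which is led by cornification genes such as Cnfn and Sprr1b, 345 in the less mature keratinocyte-like cluster 23 and 169.7 in cluster 11. Cluster 23 itself held 114 and 164 CPM in the 2 replicates. Basal cells held 30.5 to 46.6 CPM over the 5 libraries. Pericytes held 79.4 and 104.6 CPM in BPK vehicle and PK 4NQO and 9.41 to 27.2 CPM in the other libraries. With cells gated one by one, pericytes had the highest median of the classes ranked. Keratinocyte-like cells gated in this way were too few for the tumor comparison and may have been left out of that ranking.

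Gstm1 (chr3:108012255-108017973, minus strand) encodes a mu class transferase. Pericytes and vascular smooth muscle cells held the most, with 1386 CPM with vehicle, 2490 in PK glands, 1579 and 635 in the BPK 4NQO replicates and 723 in the tumor. Fibroblasts followed among named classes with 474.5, 344, 387, 269.8 and 95.3 CPM, below the pericytes of each library. Endothelial cells held 154, 155, 188 and 85.1 CPM in the glands and 9.19 in the tumor. Gland epithelium held less than gland endothelium in each library, with 19.0 to 27.3 CPM in hormone-sensing, 24.5 to 33.1 CPM in alveolar and 31.7 to 83.2 CPM in basal cells. In the tumor hormone-sensing cells held 18.2 CPM and basal cells 46.6 CPM, above the endothelial cells. Of the 50-base stretches in the last 500 bases of its transcripts 23.0% also occur in Gstm3, Gstm2-ps1 or Gm8834, so part of its counts is uncertain.

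Gstp1 (chr19:4035407-4037985, minus strand) encodes the pi class transferase. In the 7 classes that the tumor shared with the glands it reached at most 14.4 CPM in a gland library. Hormone-sensing cells held 10.3 CPM with vehicle, 3.58 in PK glands, 5.78 and 7.23 in the BPK 4NQO replicates and 39.1 in the tumor, where 161 counts give a 95% Poisson interval of 33.3 to 45.6. Fibroblasts held 7.04, 0, 2.01 and 4.79 CPM in the glands and 40.8 in the tumor (183 counts, interval 35.1 to 47.1). Basal cells held 8.12, 2.02, 2.33 and 2.41 CPM and, from 11 counts in 30 tumor cells, 39.4 CPM with an interval of 19.7 to 70.5. Such intervals cover counting error only. The tumor lay above every gland library in 7 of these 7 classes, where 23.9% of all gene and class pairs tested lay above and 31.2% below, and cluster 11 held 43.1 CPM. Outside them the highest gland value was 29.2 CPM, in Schwann cells of replicate 2. Of the 50-base stretches at the 3′ end 78.0% also occur in Gstp2 or Gstp-ps, so the split of counts among these copies is uncertain; Gstp2 itself was counted at 0.0304 to 0.159 CPM in the glands and 1.32 CPM in the tumor over all cells. The other 8 genes shared no such stretch.

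**Figure D2:**
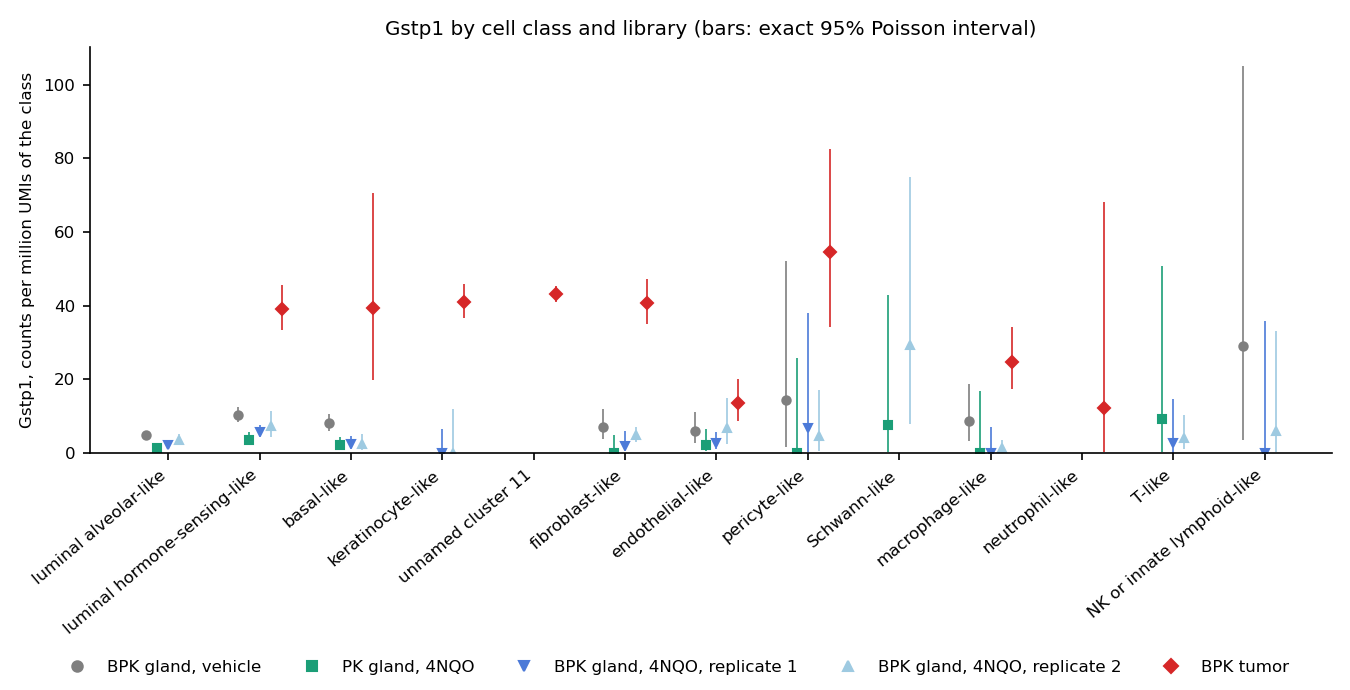
Gstp1 level in each cell class and library, in CPM, with 95% Poisson intervals of the counting error. The tumor points lie above all gland points in the 7 classes that both hold, at 39.1 CPM in hormone-sensing cells against 3.58 to 10.3 CPM.

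Txnrd1 (chr10:82833951-82897712, plus strand) encodes cytosolic thioredoxin reductase and Srxn1 (chr2:152105516-152111376, plus strand) sulfiredoxin, which repairs overoxidised peroxiredoxins. Basal cells (181, 174, 160, 369 and 290.3 CPM in BPK vehicle, PK 4NQO, the 2 replicates and the tumor) and macrophages (137, 173, 120.3, 439 and 247 CPM) held the most Txnrd1 of the classes found in all libraries, and their ranges overlapped. Cluster 11 held 34.95 CPM, below every tumor class named here. Srxn1 was highest in macrophages, at 110.2, 145.5, 60.2, 160.5 and 134 CPM, and next in fibroblasts, at 37.4, 39.6, 42.2, 62.4 and 108 CPM. The fibroblasts of each library stayed below its macrophages.

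Across the 60 sums, Hmox1 and Slc7a11 had a Pearson correlation of 0.68 in log2(CPM + 1), Txnrd1 and Slc7a11 0.67, and Hmox1 and Txnrd1 0.63. These were the highest of 45 pairs, which had a median of 0.09, 14 values below 0 and a lowest value of -0.47, for Gclm and Gstm1. The sums share libraries and differ in depth, so the values are a description. Among 4114 genes with a mean of at least 32 CPM, those most like Nqo1 were Tm4sf1 (0.708), Hspb1 (0.704), Efna1 (0.679), Ier3 (0.668) and Amotl1 (0.661). Those most like Hmox1 were Abca1 (0.766), Dab2 (0.746), Slc6a6 (0.741), Pltp (0.735) and Apoe (0.719).

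The first comparison asked whether repeated 4NQO changed these genes in BPK glands. No member passed the test in any class. By the quasi-likelihood test of edgeR, with Benjamini-Hochberg adjustment over all genes of a class, 0 of 59 member tests in 8 classes reached an adjusted p under 0.05, where 0.265% of all gene tests did. The lowest adjusted p was 0.998, 1 member test had an unadjusted p under 0.05, and DESeq2 gave 0 on both counts. The median log2 difference of the members was -0.14, beside class medians over all genes of -0.01 to 0.14. The single unadjusted result was Gstp1 in basal cells, 8.12 CPM in BPK vehicle against 2.33 and 2.41 CPM in the replicates (log2 difference -1.92, SE 0.96, unadjusted p = 0.0466, adjusted p = 1.0 by edgeR).

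The 2 replicates were also set beside the vehicle library in CPM, without the library scaling factors used in the tests. Where all 4 glands held a class, BPK vehicle fell between the replicates, ties included, in 48 of 90 pairs of gene and class. The matching share over all genes was not counted, here or for the classes in which a replicate exceeded vehicle. Txnrd1 had a fitted difference of 0.00 or more in 8 of 8 classes, at most 0.90. Replicate 1 lay above vehicle in 2 of 10 classes and replicate 2 in 9 of 10. Hmox1 was alike, with replicate 1 above vehicle in 2 of 10 classes and replicate 2 in 7. Gstp1 was lower in both replicates in most classes: replicate 1 exceeded vehicle in 1 of 10 and replicate 2 in 2 of 10. The power of this comparison was limited. In simulated counts for alveolar cells the test recovered 79% of genes changed 4-fold and 14% of genes changed 2-fold. These counts were drawn with the same spread for all genes and not with that of the replicates. The real shares may therefore be lower, and recovery at the spread of the replicates was not tested.

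Several of the genes differed between the replicates of BPK 4NQO in the same direction in most classes. How often all genes do so was not counted. The ratios are of CPM without the library scaling factors (TMM) used in the tests. These factors were higher in replicate 2 in each tested class but pericytes, as in basal cells (1.203 against 0.936), so ratios near 1 cannot be read as a rise. Txnrd1 was higher in replicate 2 in 13 of 13 classes, with a median ratio of 2.05 and a range from 1.01 to 3.65. Hmox1 was higher in 11 of 13 (median ratio 1.69), and Slc7a11 in 10 of 13 (4.33 over the 9 classes with counts in both). Srxn1 was higher in 9 of 13 (1.58). Gsta4 (0.346), Gstm1 (0.697) and Nqo1 (0.764) went the other way, each being higher in replicate 2 in 3 of 13 classes. In replicate 2 the regulator Nfe2l2 stood at 170.0 CPM in alveolar cells, against 61.7 to 75.6 CPM in the other glands, and Bach1 at 539 CPM in macrophages, against 67.7 to 98.7 CPM. This library also stood apart in its cell barcodes and clusters, and the part of this in the differences was not tested.

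**Figure D3:**
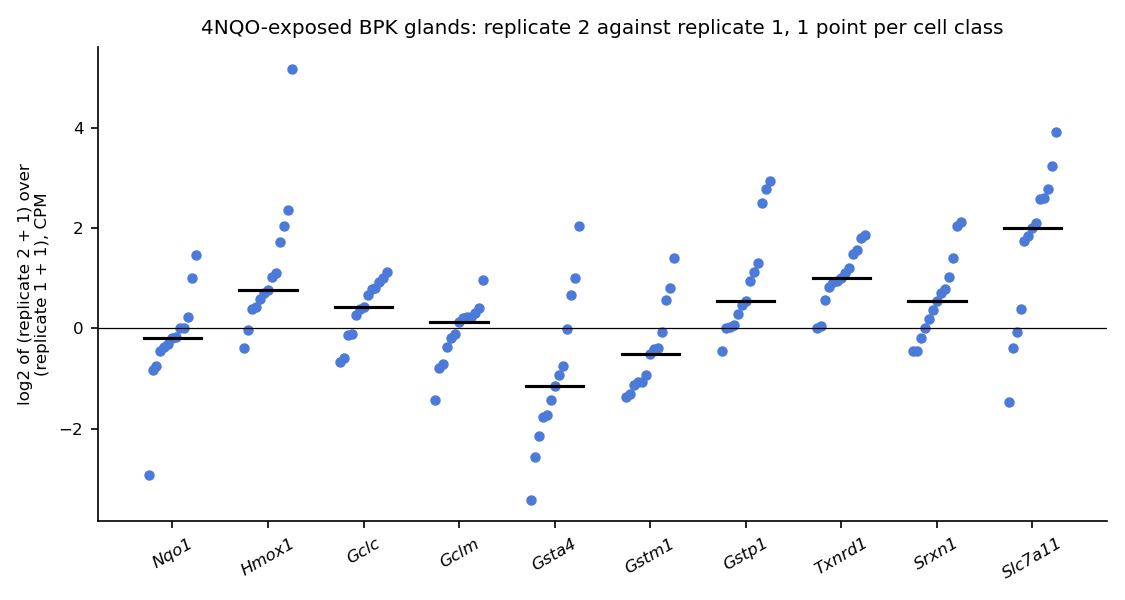
Log2 of (CPM + 1) in BPK 4NQO replicate 2 over (CPM + 1) in replicate 1 for each gene, with 1 point per cell class and the median as a bar. Txnrd1 lies above 0 in each of 13 classes, with a median of 1.01, Slc7a11 has a median of 2.01 and Gsta4 one of -1.15.

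The second comparison set BPK against PK glands, both after 4NQO, and asked what differed with the floxed Brca1 allele. The PK group was 1 library, made with Cell Ranger 3.0.2 where all BPK libraries were made with 5.0.1. An effect of the allele cannot be told apart from one of that library or version. The comparison shares the BPK 4NQO libraries with the first. No member passed in any class: 0 of 60 member tests in 8 classes passed edgeR's test, beside 0.116% of all gene tests, with 1 unadjusted p under 0.05 and none by DESeq2, adjusted or not. The members' median log2 difference was -0.03. The unadjusted result was Gsta4 in fibroblasts, at 39.6 CPM in PK 4NQO and 16.8 and 8.32 CPM in the BPK replicates (log2 difference -1.75, SE 0.76, unadjusted p = 0.0211, adjusted p = 1.0). Gsta4 had a negative difference in 5 of 5 classes tested, and BPK vehicle fibroblasts held 25.5 CPM. By CPM, replicate 1 exceeded PK 4NQO for Gsta4 in 4 of 10 classes and replicate 2 in 1 of 10. For Txnrd1, replicate 1 exceeded PK 4NQO in 2 of 10 classes and replicate 2 in 9 of 10. The matching shares over all genes were not counted.

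The third comparison set the BPK tumor against the BPK glands that had received 4NQO. Gstp1 rose in basal, keratinocyte-like, hormone-sensing and fibroblast cells of the tumor, and Gstm1 fell in endothelial cells. These were the 5 of 60 member tests in 7 classes with an adjusted p under 0.05 by edgeR, beside 1.62% of all gene tests. Of the 5, 4 are the same gene, Gstp1, in the same tumor library. The keratinocyte-like call among them adds no support, because both glands had 0 counts there. The median log2 difference of the members was 0.26, beside class medians over all genes of -0.24 to -0.04. DESeq2 called 1 of the 5, Gstm1 in endothelial cells. Without BPK 4NQO replicate 2, and with the other glands as 1 group, an alternative chosen after seeing the data, 15 of 51 member tests passed, 10 of them higher, beside 15.5% of all gene tests. With replicate 2 kept and all glands as 1 group, 5 passed, beside 2.41%. Gstp1 in fibroblasts and hormone-sensing cells and Gstm1 in endothelial cells were called in both, and Gstp1 in basal cells in neither. For keratinocyte-like cells only the BPK 4NQO glands held enough cells, so all glands as 1 group repeated the planned fit.

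For Gstp1 the log2 difference was 3.72 (SE 0.76, adjusted p = 0.000186 by edgeR) in fibroblasts, where 1.31% of all genes were called higher. It was 2.70 (SE 0.76, adjusted p = 0.0227) in hormone-sensing cells, where 2.03% were called higher, and 4.08 (SE 0.97, adjusted p = 0.0164) in basal cells, where 0.187% were. In keratinocyte-like cells Gstp1 had 0 counts in both glands and 325 in the tumor (41.1 CPM, interval 36.7 to 45.8). Against a floor of 3 counts over the group, which is 3.40 CPM, it was at least 12.1-fold higher (adjusted p = 0.0212 by edgeR, with 0.315% of all genes called higher). Gstp1 passed the count filter there through the tumor alone. With 0 counts in both glands their spread is unknown, so this p-value adds no support. Endothelial cells held 2.64 and 6.90 CPM in the replicates and 13.5 CPM in the tumor, a log2 difference of 1.72 that was not called. By DESeq2 the adjusted p was 0.1 in fibroblasts, 0.123 in hormone-sensing and 0.476 in basal cells, and none was given for keratinocyte-like cells.

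In some classes most tumor cells came from other clusters than the gland cells. Cluster 25 held 237 of 262 tumor fibroblasts, cluster 30 held 226 of 236 hormone-sensing cells and cluster 32 held 124 of 151 endothelial cells. Most tumor cells of the other tested classes lay in clusters that gland cells also held. These were 28 basal cells in cluster 0, 181 macrophages in cluster 16, 35 pericytes in cluster 20 and 261 keratinocyte-like cells in cluster 23. Within clusters that both hold, Gstp1 stood at 0 CPM in both replicates and 51.8 CPM in the tumor in cluster 23, and at 3.99 CPM (2 counts) in replicate 1 and 40.1 CPM in the tumor in the fibroblasts of cluster 25. Keratinocyte markers were also counted in other classes of the tumor. The 10 markers summed to 515 CPM in its endothelial cells (16.1 to 33.8 in the glands), 772 in fibroblasts (153 to 249.9) 922 in macrophages (29.7 to 41.5) and 1829 in hormone-sensing cells (103 to 166), with 9 or 10 of them above 0, against 10190 CPM in cluster 11. In tumor fibroblasts Krt6a stood at 4.87% of its level in cluster 11, and Gstp1 at 94.5% of its own. In tumor macrophages these shares were 7.12% and 57.5%, in endothelial cells 3.82% and 31.35%, and in hormone-sensing cells 18.2% and 90.6%. Gsta4 stood at 10.55% of its cluster 11 level in macrophages and 9.56% in endothelial cells, and the part of free epithelial RNA in the Gstp1 and Gsta4 values was not tested.

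**Figure D4:**
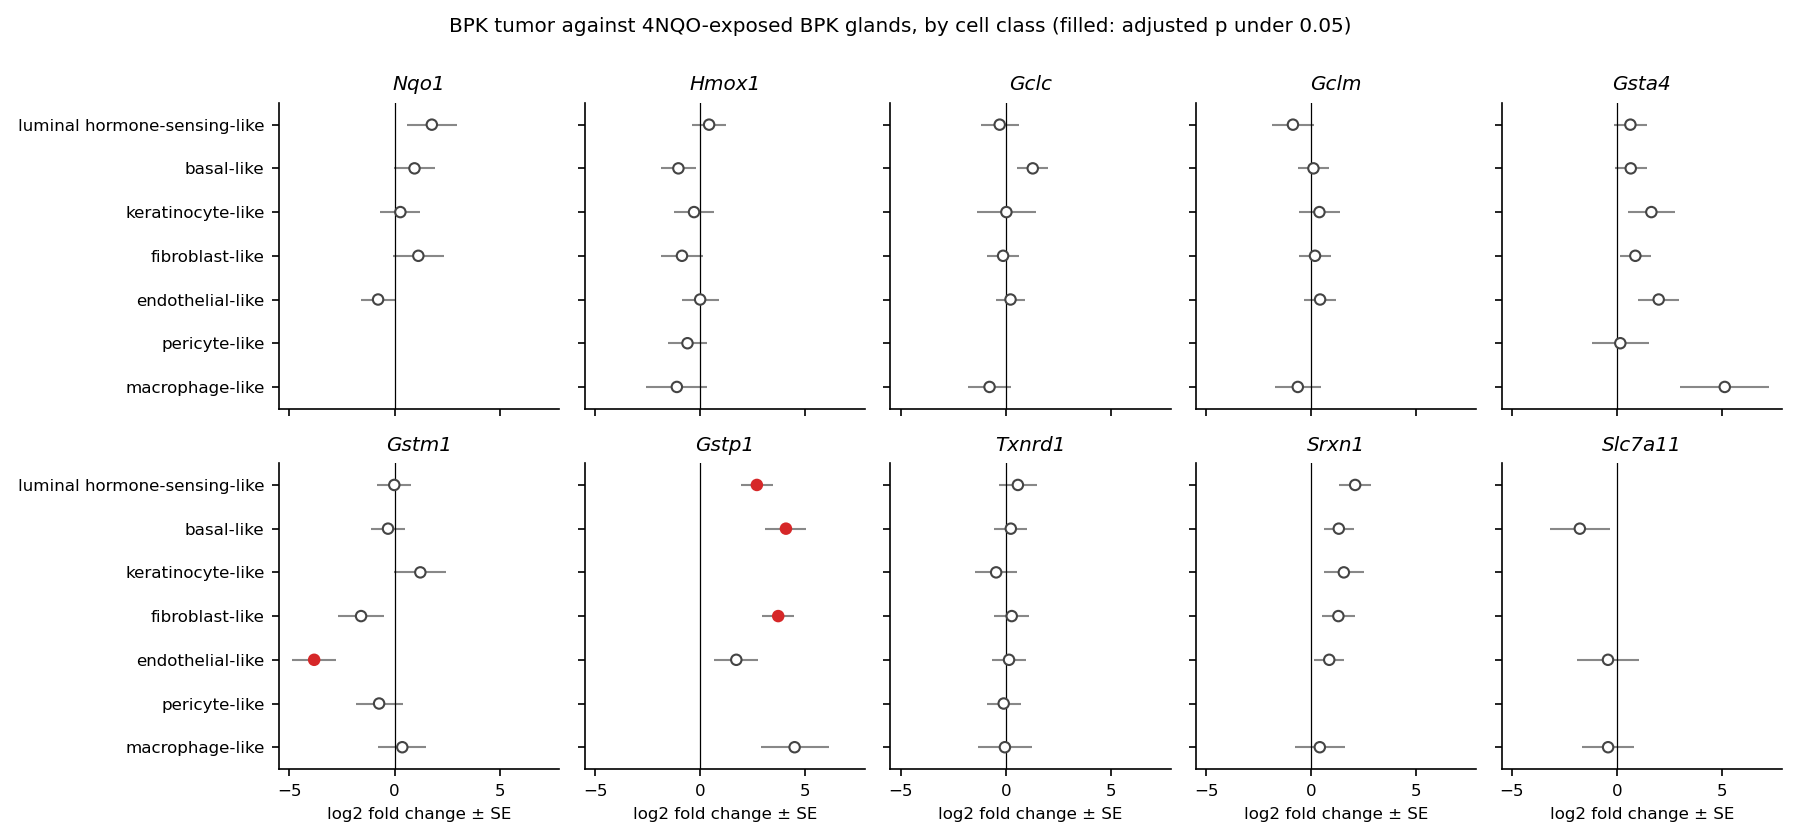
Log2 difference between the BPK tumor and the 2 BPK 4NQO glands for each gene and cell class, from edgeR, with filled points for an adjusted p under 0.05. Gstp1 is called in fibroblasts (3.72), hormone-sensing cells (2.70) and basal cells (4.08), and Gstm1 in endothelial cells (-3.83). The keratinocyte-like value of Gstp1 is left out because both glands had 0 counts.

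Gstm1 in endothelial cells fell by 3.83 on the log2 scale (SE 1.06, adjusted p = 0.0147 by edgeR), where 1.8% of all genes were called lower. The tumor value of 9.19 CPM lay below the 85.1 to 188 CPM of the 4 glands. The gland endothelial clusters differed too: capillary cluster 5 held 182 to 208 CPM in BPK vehicle, PK 4NQO and replicate 1 and, from 2 counts in 35 cells, 16.2 CPM in replicate 2, and venous cluster 15 held 48.9 to 104 CPM over the 4 glands. Tumor cluster 32 held 8.74 CPM. The interval of the replicate 2 value, 1.96 to 58.4 CPM, spans it. DESeq2 gave an adjusted p of 0.00306. Of 60 tests of a difference between 2 classes in the tumor change, 8 passed, beside 5.69% of all genes, and 0 of 100 each passed for treatment (0.377% of all genes) and genotype (0.175%). The called tests placed the endothelial change of Gstm1 below that of hormone-sensing cells by 3.77 on the log2 scale (SE 0.47, adjusted p = 2.68e-13 by edgeR with the library as a block), below that of basal cells and below that of fibroblasts.

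No other member passed the test in the tumor. Without replicate 2 and with the other glands as 1 group, Srxn1, Gsta4, Hmox1, Nqo1, Txnrd1 and Gclm were each called in at least 1 class. Most of these calls lay in hormone-sensing and endothelial cells, where that setting called 2758 of 11897 and 3423 of 9980 genes. Srxn1 had positive differences in 6 of 6 classes, from 0.40 to 2.08, and the tumor lay above all glands in 5 of 7 classes, beside the 23.9% of all genes given above. In hormone-sensing cells it stood at 11.45 and 20.5 CPM in the replicates and 61.2 CPM in the tumor (log2 difference 2.08, SE 0.77, adjusted p = 0.2 by edgeR), and it was called there with all glands as 1 group (adjusted p = 0.018) and also without replicate 2 (0.000116). Gsta4 had positive differences in 7 of 7 classes, among them 1.98 in endothelial cells (adjusted p = 0.341). In the tumor it lay above every gland in 4 of 7 classes, beside 23.9% of all genes, and within the gland range in 3. In macrophages it had 0 and 2 counts in the replicates and 17.9 CPM, from 26 counts, in the tumor (adjusted p = 0.615). Hmox1 had negative differences in 6 of 7 classes, down to -1.11, and the tumor lay below every gland in 4 of 7, where 31.2% of all genes did. Txnrd1 and Nqo1 had differences on both sides of 0. Slc7a11 was tested in 3 classes and negative in 3. Gclc and Gclm ranged from -0.77 to 1.28 and from -0.88 to 0.41.

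Genes of the wider pathway were read from 9 lists. In the treatment and genotype comparisons no listed gene was called by edgeR in any class, whose backgrounds were the 0.265% and 0.116% above. In the tumor 10 of 602 tests passed, which is 1.66%, near the 1.62% of all gene tests. In endothelial cells, where 1.58% of all genes were called higher, Akr1b8, an aldo-keto reductase, rose from 5.27 and 11.5 CPM in the replicates to 217 CPM (log2 difference 4.87, adjusted p = 5.45e-07). Gsto1, an omega class transferase, rose there from 13.2 and 14.9 to 156 CPM (3.55, adjusted p = 0.000266), and in fibroblasts from 29.5 and 26.0 to 154 CPM (2.69, adjusted p = 0.028). The fibroblast call was lost by DESeq2 (adjusted p = 0.0723) and with cells gated one by one (0.0815). The glutathione-dependent reductase Glrx also rose in endothelial cells, from 27.2 and 13.8 to 125.5 CPM (2.63, adjusted p = 0.011), a call that DESeq2 did not make (adjusted p = 0.147).

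Endothelial cells of the tumor held less of several other conjugating enzymes. The theta class transferase Gstt2 fell from 248 and 80.5 CPM to 13.0 CPM (-3.61, adjusted p = 0.027), Gstt1 from 62.4 and 39.1 to 3.25 CPM (-3.88, adjusted p = 0.00589), and Gstt3 from 52.3 and 9.20 to 2.16 CPM (-3.80, adjusted p = 0.00557). Gstt3 was not called by DESeq2 (adjusted p = 0.18), and without replicate 1 the difference was -1.92 for Gstt3 and -2.50 for Gstt2. Ephx1, the microsomal epoxide hydrolase, fell from 51.0 and 145 CPM to 7.57 CPM (-3.56, adjusted p = 0.0121). Of the genes that rise when tissue is dissociated, Egr1 fell in endothelial cells (-4.02, adjusted p = 0.0315) and Hspa1b in pericytes (-4.33, adjusted p = 0.0495), where 0.607% of all genes were called lower. Without a count filter neither was called (adjusted p = 0.0878 and 0.102), and Hspa1b was not called with doublets kept (0.0685) or with only the compared libraries (0.0704). The summed level of that list was below that of each gland in the tumor's endothelial cells, at 6106 CPM against 16120 to 24970, and in its fibroblasts, at 5342 against 15520 to 20160. The part of this in the other differences was not tested.

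By list, the tumor comparison called 0 of 62 tests of NRF2 regulators (median log2 difference -0.40, 20 positive), and 1 up and 1 down of 144 for other NRF2-linked antioxidant and NADPH genes (0.16, 84 positive). It called 1 up of 75 for glutathione synthesis, reduction and peroxidases (0.68, 61 positive) and 2 up and 3 down of 65 for other glutathione S-transferases (-0.09, 31 positive). None was called of 33 for 4NQO activation and conjugate export (-0.32), of 68 for other superoxide and peroxide enzymes (0.52), of 24 for the aryl hydrocarbon receptor genes (-0.61) or of 54 for ATF4 amino acid stress (0.36). The dissociation list had 2 down of 77 (-1.03). Treatment medians of the 9 lists ran from -0.32 to 0.42 and genotype medians from -0.35 to 0.55, the highest in both being the NRF2 regulators. Both comparisons share the BPK 4NQO libraries. Over all cells the regulators Sqstm1 and Nfe2l1 were highest in replicate 2, and Maff was lowest there among the glands.

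Among the regulators with the highest levels, Sqstm1, which binds KEAP1, stood at 376, 345, 325, 870.0 and 241 CPM over all cells in BPK vehicle, PK 4NQO, the 2 replicates and the tumor. Nfe2l1, a relative of NRF2, stood at 104, 108, 111, 392 and 44.9 CPM. Maff, a small MAF protein, stood at 322, 323, 261, 119 and 74.0 CPM. Sqstm1 and Nfe2l1 were thus highest in replicate 2 and Maff was lowest in the tumor. Sars, the seryl-tRNA synthetase named above, stood at 92.1, 90.55, 104.5, 170.0 and 89.95 CPM. Por, an electron donor of cytochrome P450 enzymes, stood at 94.8 CPM in replicate 2 and 74.3 in the tumor, against 22.4 to 28.3 CPM elsewhere, and the conjugate exporter Abcc3 at 13.3 to 29.1 CPM. The ferritin chains Ftl1 (1419 to 3655 CPM) and Fth1 (2354 to 4216 CPM) and the peroxiredoxin Prdx1 (617 to 1528 CPM) were each highest in the tumor. Of the peroxidases, Gpx3 stood at 254 CPM in the tumor against 1386 to 2797 in the glands, Gpx4 at 360 to 968 CPM and Gpx1 at 374 to 722 CPM. Among transferases Mgst1 stood at 79.2 CPM in the tumor against 158 to 510.5 in the glands, Gsto1 at 345 against 33.0 to 47.2 CPM, and Mgst3 at 157.5 against 20.9 to 81.9 CPM. Prdx2 (177 to 389 CPM), Prdx5 (153 to 274 CPM) and Sod2 (78.7 to 138 CPM) were each lowest in replicate 2. Tiparp (88.1 to 232 CPM), Ahr (18.2 to 41.9 CPM) and Arnt (13.8 to 33.8 CPM) were highest in replicate 2 and lowest in the tumor. Atf4 stood at 178 to 336 CPM and was lowest in the tumor, while Ddit4 (55.9 to 116.5 CPM) and Phgdh (30.6 to 123 CPM) were highest there. The dissociation genes Fos (722.5 to 3995 CPM), Jun (580.4 to 2917 CPM) and Junb (805 to 2638 CPM) were lowest in the tumor. Over all cells a difference in level cannot be told apart from a difference in the mix of cell types.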

How the data were processed

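UMI counts per gene and cell barcode were deposited by the authors for 5 libraries. Per the file headers the PK 4NQO library was made with Cell Ranger 3.0.2 and every other one with 5.0.1, on mm10 per the submitters' processing notes. Per the labels the chemistry was 10x 3′ v2, and barcode sharing leaves this in doubt for BPK 4NQO replicate 2. For cell calling and the annotation release, the setting is not given in the sources used here.

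Barcodes with under 300 genes or over 20% mitochondrial counts and the top 0.8% per 1000 barcodes by doublet score were removed (scanpy 1.11.5, scikit-learn 1.9.0, numpy 2.4.6, scipy 1.17.1, Python 3.11.15). The mitochondrial limit removed 12.92% of tumor barcodes and 0.84 to 2.15% of the others. Clusters (2000 variable genes, 30 components, 20 neighbors, Leiden resolution 1, leidenalg 0.10.2) took the class with the highest marker score above 0.5 with 3 markers in 25% of cells. A pair of further naming rules were added after the clusters were seen: a cluster in which another class had more detected markers, and an epithelial one without Epcam in 25% of cells, stayed unnamed.

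Counts were summed per library and class with at least 30 cells and tested in R 4.3.3 by edgeR 4.0.16 with limma 3.58.1, using filterByExpr, TMM, quasi-likelihood F test, Benjamini-Hochberg over all genes of a class, threshold 0.05. Treatment and genotype came from 1 model of the 4 glands and the tumor contrast from all 5 libraries. Each model had 1 residual degree of freedom, from the BPK 4NQO pair, so a group of 1 library is assumed to vary as that pair does. DESeq2 1.42.0 was an alternative. The test was checked on simulated counts.

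The 10 genes and the pathway lists were chosen with earlier results of these data known. All 10 are named. From the lists every gene past the threshold is named and, for the comparisons in which none passed, the 3 with the largest mean level per list. Nfe2l2 and Bach1 are named outside this rule, each in a single cell class. The dose was not used because its unit is in doubt.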

Additional observations from a re-analysis of the deposited data

Results flagged for a closer look

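For 8 of 60 tests, over 6 pairs of classes, the change between the BPK 4NQO glands and the tumor differed between 2 cell classes (edgeR, library as a block, adjusted over all genes of a pair). Over all genes 5.69% of such tests were called. Of 100 such tests each for treatment and genotype 0 were called by edgeR, beside 0.377% and 0.175% of all genes. At an unadjusted p under 0.05 they numbered 6 and 11, beside 5.01% and 4.42% of all genes. All values are differences of log2 changes between classes.

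The change of Gstm1 in endothelial cells lay below that in hormone-sensing cells (-3.77, SE 0.47, adjusted p = 2.68e-13), basal cells (-3.494, SE 0.677, adjusted p = 3.96e-05) and fibroblasts (-2.112, SE 0.513, adjusted p = 0.00194). In fibroblasts it lay below that in hormone-sensing cells (-1.499, SE 0.41, adjusted p = 0.00593). The change of Hmox1 in basal cells (-1.449, SE 0.454, adjusted p = 0.0387) and in fibroblasts (-1.283, SE 0.384, adjusted p = 0.0151) lay below that in hormone-sensing cells. For endothelial against hormone-sensing cells, the change of Nqo1 was lower (-2.601, SE 0.836, adjusted p = 0.0233) and that of Gclm higher (1.352, SE 0.361, adjusted p = 0.00358). Each rests on a single tumor library.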

How the results depend on the processing

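No paired analysis was possible because the groups compared share fewer than 2 replicate numbers. The treatment and genotype counts stayed at 0 called under each alternative with a test. The tumor count of 5 became 5 with RLE factors, 5 with doublets kept, 7 without a count filter, 6 with only the compared libraries and 4 with cells gated one by one, where keratinocyte-like cells gave no value. With DESeq2 it was 1. In 2 alternatives chosen after seeing the data, it was 5 against all glands as 1 group (2.41% of all genes called) and 15 of 51 against the glands without replicate 2 as 1 group (15.5% of all genes called). In both, Gstp1 in basal cells was not called, at adjusted p = 0.552 and 0.184 by edgeR. Leaving out either BPK 4NQO replicate from the planned fits left 0 residual degrees of freedom and so values without a test. Of 161 values of single genes under alternatives with a test, 141 kept their direction and side of the threshold, 13 lost and 6 gained a call, and 1, with no adjusted p, moved beyond its spread. Of 42 values with 1 replicate left out, 38 stayed within their spread and 4 moved beyond it. Reversals numbered 0. The leading class stayed for 9 of the 10 genes after TMM scaling (Txnrd1 became highest in macrophages) and for 7 with cells gated one by one (Nqo1, Gsta4 and Gstp1 did not). Keratinocyte-like cells, which led for Nqo1 and Gsta4, may have been left out of the gated ranking because too few cells were gated. In simulated tumor fibroblasts 71% of 4-fold and 3% of 2-fold changes were recovered, so changes near 2-fold were mostly below what this design can call. The simulation assumed the same spread for all genes, not that of the replicates, so the real shares may be lower. The tumor is 1 library.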
